A study of Arabidopsis thaliana with 8 samples.

Results

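The regions described here are the 1036 accessible chromatin regions (ACRs) of Arabidopsis thaliana that were open mainly in the dry seed, out of 30223 ACRs measured. An ACR is a stretch of DNA that the Tn5 transposase can enter, which ATAC-seq reads out as a peak of sequenced ends. The members were chosen on the deposited CPM values, which are counts scaled to a common library size along a trend with abundance. A member had a dry seed mean of at least 10 CPM and at least 1.5 times the mean of each other stage, and both dry seed libraries lay above all 6 others. The difference between the dry seed and the later stages is therefore what the choice used, and it is described below without a test. The 8 libraries were all from the accession Col-0, with 2 libraries for each of 4 stages: dry seeds (DS), germinating seeds after 6 h (L6) and 26 h (L26) of light, and seedlings after 57 h of light (L57). The light followed stratification, a dark and cold period in water. The labels name no mutation, transgene or chemical treatment in any group. By the labels, germinating seeds were squeezed to release embryos, which were then parted from the seed coats on a sucrose step. How dry seeds and seedlings were handled is not stated, so a comparison with DS or L57 may also compare tissues, and these cannot be told apart. The labels do not say that libraries came from separate seed batches, and p-values therefore speak only of the scatter among these 8 libraries, part of which may be technical.

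The dry seed is a resting embryo packed with reserves. During maturation, abscisic acid (ABA) acts through bZIP transcription factors that bind G-box and ABRE elements, and B3-domain factors bind the RY repeat. These factors drive genes for storage proteins, oil body proteins, LEA proteins that protect dry cells, and small heat shock proteins. Germination closes this program and opens the seedling program.

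Several member ACRs lay in front of such genes, and their sequences are shown because they hold the motifs counted further on. The sequences were read from the RefSeq genome TAIR10.1, in the direction of the gene's transcription, and none overlaps an annotated exon. Capitals mark matches on either strand to the G-box (CACGTG), to the ABRE in its GC form (ACGTGGC) or TC form (ACGTGTC), or to the RY repeat (CATGCA). A match describes letters and not a bound site. The 8 stretches are from chr4:12900091-12900390 on the plus strand for OLEO1 (an oleosin that coats oil bodies), chr5:22239188-22239457 on the minus strand for SESA5 (a 2S albumin storage protein), chr5:17758337-17758612 on the minus strand for CRA1 (a cruciferin, the 12S globulin), chr2:9207157-9207431 on the minus strand for LEA (a dehydrin), chr2:17209403-17209581 on the plus strand for M10 (a LEA protein), chr5:21236781-21237020 on the plus strand for LTI65 (also known as RD29B, an ABA-induced gene), chr3:16081907-16082164 on the minus strand for DPBF2 (also known as bZIP67, a seed bZIP factor) and chr5:18592002-18592301 on the minus strand for DOG1 (a regulator of dormancy).
OLEO1: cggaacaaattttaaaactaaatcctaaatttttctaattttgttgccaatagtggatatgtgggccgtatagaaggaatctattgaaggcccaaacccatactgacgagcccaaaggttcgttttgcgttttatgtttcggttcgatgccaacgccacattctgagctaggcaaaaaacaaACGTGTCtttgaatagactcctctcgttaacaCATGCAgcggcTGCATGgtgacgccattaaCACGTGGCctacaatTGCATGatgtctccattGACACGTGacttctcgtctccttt
SESA5: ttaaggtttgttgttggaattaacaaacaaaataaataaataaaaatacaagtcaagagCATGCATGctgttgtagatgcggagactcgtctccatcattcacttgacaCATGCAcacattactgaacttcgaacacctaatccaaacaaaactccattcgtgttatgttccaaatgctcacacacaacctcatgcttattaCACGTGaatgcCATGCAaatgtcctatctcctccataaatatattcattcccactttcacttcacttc
CRA1: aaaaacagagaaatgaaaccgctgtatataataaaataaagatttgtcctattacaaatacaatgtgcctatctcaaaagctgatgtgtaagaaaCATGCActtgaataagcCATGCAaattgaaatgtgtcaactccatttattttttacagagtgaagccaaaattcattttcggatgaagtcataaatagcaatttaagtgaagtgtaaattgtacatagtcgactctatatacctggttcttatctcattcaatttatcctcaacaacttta
LEA: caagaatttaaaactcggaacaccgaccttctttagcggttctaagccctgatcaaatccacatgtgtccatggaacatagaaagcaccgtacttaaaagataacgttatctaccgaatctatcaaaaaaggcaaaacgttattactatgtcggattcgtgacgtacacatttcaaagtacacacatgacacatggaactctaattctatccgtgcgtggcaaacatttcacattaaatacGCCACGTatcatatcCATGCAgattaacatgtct
M10: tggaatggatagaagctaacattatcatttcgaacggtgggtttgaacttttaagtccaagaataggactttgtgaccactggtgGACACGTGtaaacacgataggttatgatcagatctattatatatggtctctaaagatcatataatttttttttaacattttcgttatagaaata
LTI65: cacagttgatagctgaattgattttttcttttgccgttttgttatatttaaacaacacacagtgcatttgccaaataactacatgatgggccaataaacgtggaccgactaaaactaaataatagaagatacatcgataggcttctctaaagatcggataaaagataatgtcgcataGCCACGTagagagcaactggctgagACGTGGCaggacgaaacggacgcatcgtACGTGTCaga
DPBF2: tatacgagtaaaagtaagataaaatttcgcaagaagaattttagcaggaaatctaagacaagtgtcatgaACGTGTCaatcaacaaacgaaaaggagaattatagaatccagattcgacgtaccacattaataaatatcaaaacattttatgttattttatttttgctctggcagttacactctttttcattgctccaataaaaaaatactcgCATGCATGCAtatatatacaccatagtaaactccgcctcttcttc
DOG1: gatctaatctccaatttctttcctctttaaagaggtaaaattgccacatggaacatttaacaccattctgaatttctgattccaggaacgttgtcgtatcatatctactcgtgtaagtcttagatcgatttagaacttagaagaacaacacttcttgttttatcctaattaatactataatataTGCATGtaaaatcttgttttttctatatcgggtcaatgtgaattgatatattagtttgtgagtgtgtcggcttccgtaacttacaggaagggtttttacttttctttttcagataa
Of the 8 stretches, 6 held a G-box or an ABRE and 6 held an RY repeat. OLEO1 held 2 G-boxes, 3 ABREs and 3 RY repeats, and 2 of its ABREs overlapped a G-box. SESA5 held 4 RY repeats and 1 G-box, CRA1 held only RY repeats, and LTI65 held only ABREs.

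Depth fell with the stage. Total counts over ACRs were between 3697787 and 3734831 in DS, between 3142490 and 3302541 in L6, between 2089834 and 2531844 in L26, and between 1534759 and 1853894 in L57. A median member had 175 and 177 counts in DS, 69 and 73 in L6, 41 and 54 in L26, and 33 and 39 in L57. Log values correlated between 0.914 and 0.960 for libraries of a stage and between 0.748 and 0.865 for libraries of different stages. Replicates therefore stood closer to each other than to other stages. In bulk samples, fewer cells with an open region and less opening per cell cannot be told apart.

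Members had a median stage mean of 48.8 CPM in DS, 24.0 at L6, 19.7 at L26 and 20.0 in L57, where all ACRs had 22.6, 23.1, 23.3 and 23.1 CPM. The DS values stretched from 10.1 to 411 CPM, with the middle 80% between 15.8 and 147 CPM. Outside the dry seed, members thus sat near the typical ACR in CPM per ACR. Members were wider, with a median of 620 against 522 bp, so per kilobase they would stand lower against it. They took 7.27% and 7.13% of all CPM in DS, against 3.52% and 3.51% in L6, 2.89% and 2.97% in L26, and 2.95% and 2.94% in L57. The DS mean was a median 1.72 times the highest other stage mean, and the upper quartile was 2.08 times. A ratio of at least 2 was reached by 296 members, at least 3 by 51 and at least 4 by 11, while 318 members were under 1.6. Stage by stage, the DS mean was a median 1.88 times that at L6, 2.21 times that at L26 and 2.18 times that in L57. A median member thus kept signal at each later stage, at a lower level than in DS. Whether each member was a peak at each stage was not examined. The next highest stage was L6 for 573 members (55.3%), L57 for 295 (28.5%) and L26 for 168 (16.2%).

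**Figure D1:**
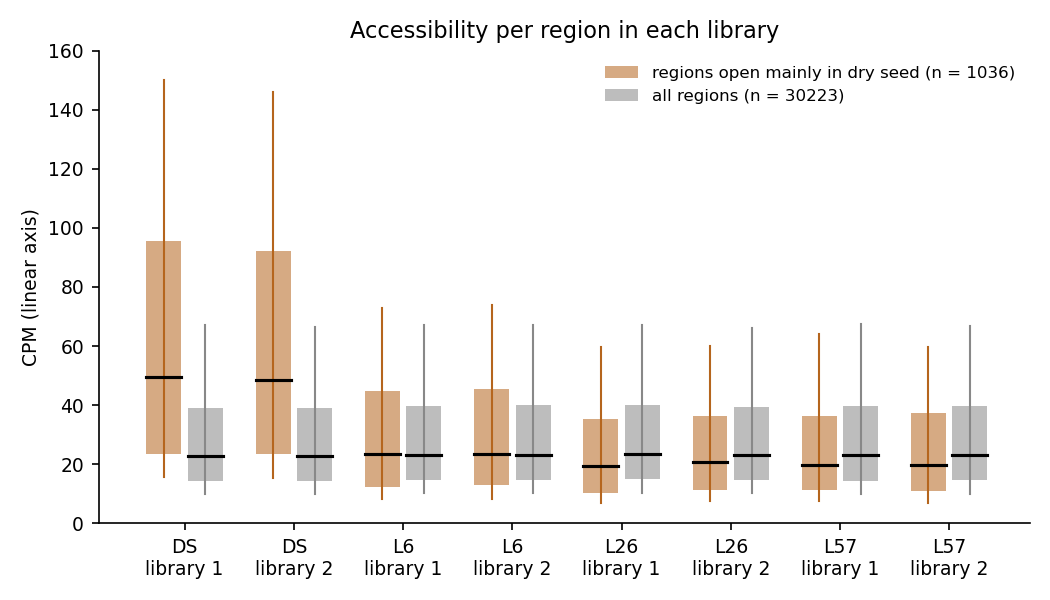
CPM per ACR in each of the 8 libraries on a linear axis, for the 1036 members and for all 30223 ACRs. Boxes span the quartiles, black lines are medians and thin lines reach the 10th and 90th percentiles. Member medians were 49.4 and 48.5 CPM in the DS libraries and between 19.2 and 23.5 CPM in the other 6, a difference that the choice of members fixes.

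The edge of the set was gradual. Just inside the ratio, the ACRs nearest AT2G05370 and UGT76B1 reached 1.500 times and that of AT5G28580 reached 1.501 times. Just outside, the ACRs nearest AT2G01840, AT5G22545 and SIB2 each reached 1.499 times. On the level, the lowest members were at 10.1 CPM (AT4G06702), 10.4 CPM (AT1G48720) and 10.5 CPM (AT5G28580), and the nearest ACRs left out were at 9.74 CPM (AT5G28370), 9.60 CPM (BGLU28) and 8.69 CPM (AT1G63870).

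Members lay in promoters as often as ACRs in general, and less in gene bodies. By the position of the summit, 342 members (33.0%, exact 95% interval 30.2 to 36.0) were in a promoter, taken as the stretch up to 400 bp before and 100 bp after a transcription start, against 33.4% of all ACRs. Gene bodies held 266 members (25.7%, 23.0 to 28.5) against 37.5% of all ACRs, and intergenic sequence held 301 (29.1%, 26.3 to 31.9) against 21.3%. Annotated pseudogenes, a class that here takes in transposable element genes, held 110 members (10.6%, 8.81 to 12.7) against 6.64% of all ACRs. The same rule applied to each other stage gave 807 ACRs open mainly at L6, 557 at L26 and 1179 in L57, and pseudogenes held 0.372%, 2.87% and 0.933% of these. Intergenic sequence held 43.6%, 51.0% and 26.8% of these sets, and gene bodies 15.2%, 17.6% and 50.8%. A high intergenic share was thus not particular to members, and a low gene body share was also found at L6 and L26. A gene-poor place, a bin of 100 kb with fewer than 10 protein-coding starts, held 111 members (10.7%, 8.90 to 12.8) against 6.95% of all ACRs. These intervals cover counting error only and take ACRs as independent.

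**Figure D2:**
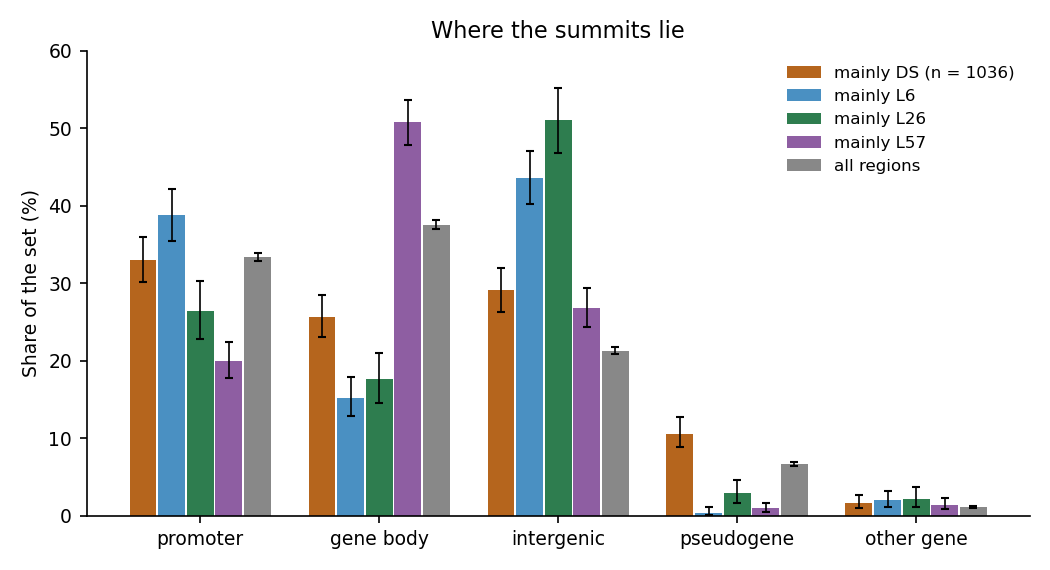
Share of ACRs by the annotation at their summit, in percent, for the members, for all ACRs and for the ACRs open mainly at L6, L26 or L57. Bars are shares and thin lines exact 95% intervals, and members stood at 25.7% in gene bodies and 10.6% in pseudogenes against 37.5% and 6.64% of all ACRs.

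The classes also differed in level. Per kilobase of ACR, the median DS level was 92.7 CPM in promoter members, 91.7 CPM in intergenic members and 45.7 CPM in pseudogene members, with gene body members in between. Pseudogene members had a median ratio of 1.59, near the limit of the rule, and promoter members one of 1.85. Members were wider than ACRs in general, with a median of 620 against 522 bp, and poorer in G and C, with 36.1% against 38.1% over 500 bp at the summit. The ACRs open mainly at L6, L26 and L57 had median widths of 391, 420 and 482 bp. Their G and C stood at 32.7%, 33.1% and 36.9%, so the low G and C was not particular to members. In promoters, the member summit lay a median 83.0 bp before the start, which is -83.0 bp against -50.0 bp for all ACRs. It lay at -30.0, -94.0 and -96.0 bp in the ACRs open mainly at L6, L26 and L57. Another member lay within 1000 bp for 77 members and within 10000 bp for 345.

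Several motifs, those of ABA and maturation among them, were found in a larger share of members than of ACRs in general. Within 250 bp of the summit and on both strands, 341 members (32.9%, exact 95% interval 30.1 to 35.9) held a G-box or an ABRE of either form, against 19.8% of all ACRs. The G-box CACGTG was in 22.8% of members (20.3 to 25.5) and 14.2% of all ACRs, the ABRE ACGTGTC in 16.2% (14.0 to 18.6) and 7.65%, and the ABRE ACGTGGC in 11.4% (9.52 to 13.5) and 7.23%. The motifs overlap, since an ABRE of either form with a C before it holds a G-box. The ABRE ACGTGTC was in 7.06% of ACRs open mainly at L6, 4.49% at L26 and 3.90% at L57. Read backwards and not complemented, which keeps the base composition, the same letters were in 2.41% of members and 2.86% of all ACRs. The matches stood near the summit in both sets, since 42.9% of 315 G-boxes in members and 42.8% of 5368 in all ACRs lay within 50 bp of it.

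The RY repeat CATGCA was in 26.4% of members (23.8 to 29.2) and 18.7% of all ACRs, and in 30.2% of ACRs open mainly at L26. Its reversed letters ACGTAC hold an ACGT core and were in 16.6% of members and 9.83% of all ACRs. The DRE ACCGAC, a site of drought and cold factors, was in 16.8% of members and 12.0% of all ACRs, while its reversed letters were in 14.5% and 15.5%. The heat shock element GAANNTTC was in 17.8% of both. Motifs outside the maturation program were also in a larger share, since the I-box GATAAG was in 32.7% of members (29.9 to 35.7) and 25.6% of all ACRs, and the TATA box TATAAA in 52.3% (49.2 to 55.4) and 47.1%. The Site II motif TGGGCC, common before genes of growth and translation, was in 10.4% of members against 22.4% of all ACRs, and the Telo-box AAACCCTA in 4.73% against 8.05%. Pseudogene members stood apart from the other classes in these motifs. Among the 110 of them, 5.45% held a G-box, against 5.58% of all pseudogene ACRs, while 28.7% of promoter members did, against 17.8% of all promoter ACRs. The shares are descriptions, and the part of these motifs in the levels was not tested.

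**Figure D3:**
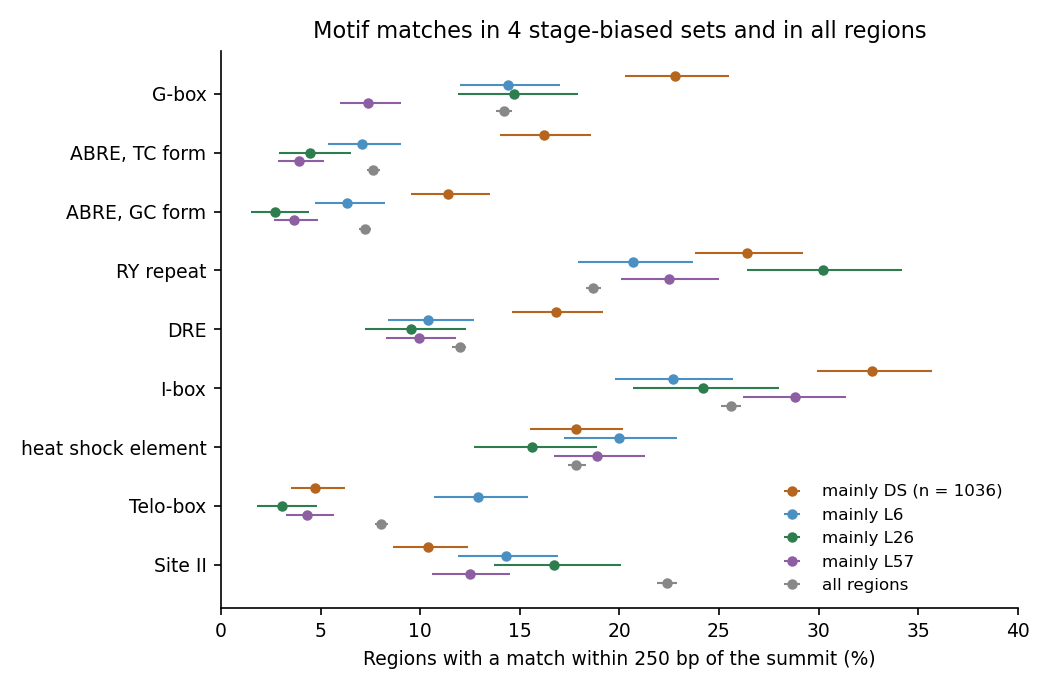
Percent of ACRs with a match within 250 bp of the summit, for 9 motifs in 5 sets: members, all ACRs, and ACRs open mainly at L6, L26 or L57. Dots are shares and bars exact 95% intervals, and both ABRE forms and the G-box stood higher in members (11.4% to 22.8%) than in the other 4 sets (2.69% to 14.7%).

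Genes of seed maturation had a member more often than protein-coding genes in general. Their lists were chosen with results of these libraries known, so the shares describe the set and support nothing further. Of 33 genes for LEA proteins and dehydrins with an ACR from 1000 bp upstream to the gene's end, 16 had a member (48.5%). The same count was 14 of 19 for storage proteins, oil bodies and the storage vacuole (73.7%), 11 of 21 for heat shock proteins and factors (52.4%), 8 of 38 for ABA synthesis, signaling and response (21.1%), 5 of 20 for maturation and dormancy regulators and 2 of 8 for raffinose sugars. Over all protein-coding genes it was 817 of 18800 (4.35%). None of 15 photosynthesis genes and 1 of 10 reference genes (UBQ10) had a member. None of 8 seed coat marker genes and none of 2 endosperm marker genes with an ACR had a member, out of 10 and 5 markers listed. The summed level of the seed coat ACRs was between 336 and 341 CPM in DS and between 359 and 453 CPM in the later libraries. The 3 endosperm ACRs summed to 123 and 112 CPM in DS and to between 76.1 and 96.2 CPM in the later libraries, and the part of endosperm in the results was not tested.

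Among the 8 members with the largest ratio, the first was the ACR at MIR8184, a microRNA precursor on chr5:3311803-3312365, with 84.3 and 85.3 CPM in DS, 16.4 and 16.7 in L6, 16.4 and 14.1 in L26, and 19.0 and 11.9 in L57. Its DS mean was 5.125 times the highest other mean. GASA3 (chr4:6073446-6074066, a gibberellin-regulated peptide gene) had 111 and 111 CPM in DS, 23.3 and 23.5 in L6, 18.3 and 21.7 in L26, and 13.3 and 13.2 in L57. HSP70 (AT3G12580, chr3:3993011-3994051, a cytosolic chaperone) had 131 and 129 CPM in DS, 24.7 and 25.3 in L6, 17.8 and 25.4 in L26, and 27.8 and 28.7 in L57. GASA3 fell by 0.82 ± 0.30 on the log2 scale at L57 against L6 (SE, edgeR adjusted p = 0.0257). That call was lost without any 1 of the L6 or L57 libraries and with GC-corrected offsets. MIR8184 and this ACR of HSP70 had no call between the later stages. Another member inside HSP70, not among these 8, had means of 87.9 CPM in DS, 30.2 at L6, 28.1 at L26 and 57.3 in L57. With the deposited scaling it was called higher at L57 than at L26 and at L6, with log2 changes of 1.02 and 0.92. The ACRs nearest ML4 (an RNA-binding protein), AT1G05510, AT2G36500, ABCC15 (a transporter) and NCED4 (a carotenoid cleavage enzyme) made up the rest. Of these, NCED4 (chr4:10480515-10481174) had 61.0 and 68.0 CPM in DS and between 10.4 and 17.7 CPM in the later 6 libraries. The ABCC15 summit lay in a non-coding gene upstream of it.

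The highest DS levels per ACR depended partly on width. The ACR over the pseudogene AT3G10100 (chr3:3110912-3114385) had 409 and 412 CPM in DS over 3474 bp, which is 118 CPM per kilobase. Next were LCR67 (a small cysteine-rich, defensin-like protein), AT1G76590 (summit in a non-coding gene), M10, BAS1 (a cytochrome P450 that inactivates brassinosteroids) and WNK4 (a kinase), at between 182 and 306 CPM per kilobase. LCR67 (chr1:28471195-28472920) had 375 and 388 CPM in DS, 169 and 168 in L6, 69.6 and 70.1 in L26, and 84.1 and 51.4 in L57. The ACR at the end of BAS1 (chr2:11382443-11383490) had 330 and 311 CPM in DS, 126 and 115 in L6, 76.1 and 58.7 in L26, and 71.4 and 64.7 in L57. WNK4 (chr5:23584145-23585226) had 335 and 303 CPM in DS, 204 and 187 in L6, 85.0 and 73.1 in L26, and 86.4 and 99.3 in L57. The ACRs at LCR67, BAS1 and WNK4 were all lower at L26 than at L6, with log2 changes of -1.27 ± 0.12, -0.84 ± 0.13 and -1.31 ± 0.11 (SE, edgeR adjusted p = 3.55e-18, 2.85e-08 and 1.33e-20).

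The differences among L6, L26 and L57 did not enter the rule as such, but their levels did, since each had to lie below DS. A member could therefore not reach high values at L26 or L57, a limit that the ACRs of the whole table do not have, so the shares of calls below are descriptions and the scarcity of higher calls is at least partly fixed by the choice. The 3 comparisons below share libraries, so they are not independent, and calls are at an adjusted p under 0.05 in the quasi-likelihood test of edgeR over all ACRs. At L26 against L6, 176 members were lower (17.0%, exact 95% interval 14.7 to 19.4) while 7.91% of all ACRs were called lower, and 4 members were higher (0.386%, 0.105 to 0.986) while 8.71% of all ACRs were called higher. The L26 and L6 libraries did not overlap in any of these 176 and 4 members. This adds little to a call with 2 libraries a stage, and the same share over all called ACRs is not given here. At L57 against L6, non-overlap held for 199 of 200 lower members. The median log2 fold change was -0.19 in members against -0.01 for all ACRs. The median SE of a member was 0.26, and 71.8% of members were below 0. The count of lower calls was 113 without L26 replicate 1 and 101 without L26 replicate 2.

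At L57 against L26, lower and higher calls were nearly equal in number. Here 37 members were lower (3.57%, 2.53 to 4.89) while 6.19% of all ACRs were, and 36 were higher (3.47%, 2.45 to 4.78) while 7.53% of all ACRs were. The split depended on the scaling. The deposited scaling follows the abundance of an ACR, while TMM and DESeq2 size factors give each library 1 factor for all ACRs. There were 65 lower and 24 higher members by TMM factors, 60 and 25 by DESeq2 size factors, 31 and 56 with GC-corrected offsets, and 38 and 8 by the DESeq2 test. Without L57 replicate 1 it was 14 lower and 20 higher, without L57 replicate 2 it was 12 and 23, without L26 replicate 1 it was 28 and 16, and without L26 replicate 2 it was 22 and 24.

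At L57 against L6, 200 members were lower (19.3%, 16.9 to 21.8) while 15.8% of all ACRs were, and 30 were higher (2.90%, 1.96 to 4.11) while 16.0% of all ACRs were. The lower share stood near the background, and the higher share is one that the cap on L57 limits. The median log2 fold change was -0.15 against 0.01 for all ACRs. With GC-corrected offsets 162 were lower and 49 higher, and by TMM factors 292 were lower and 14 higher. The lower count was 119 without L57 replicate 2, and the higher count was 19 without L6 replicate 1. Scaling by total counts shifted the median of all ACRs to 0.19 in this comparison, and the members then stood at -0.06.

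**Figure D4:**
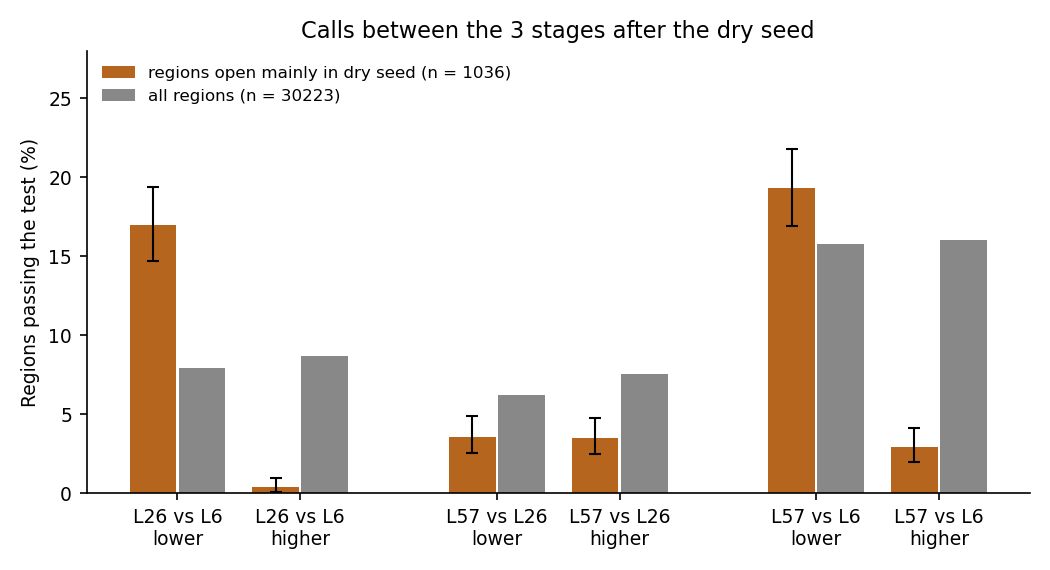
Percent of members and of all ACRs called lower or higher in 3 comparisons between stages after germination began, with exact 95% intervals for members. Members called lower at L26 against L6 were 17.0% against 7.91% of all ACRs, and those called higher 0.386% against 8.71%, a share that the choice of members limits.

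Over the 3 comparisons, 727 members (70.2%) had no call at this depth, against 60.1% of all ACRs. Among the rest, 107 (10.3%) were lower at both L26 and L57 than at L6, with no call between L26 and L57, against 5.01% of all ACRs. Another 9 (0.869%) were lower at each step, against 0.917%. At L26 against L6, 75 of 342 promoter members (21.9%) were lower against 9.55% of all promoter ACRs, 70 of 301 intergenic members (23.3%) against 13.7%, 24 of 266 gene body members (9.02%) against 4.27%, and 2 of 110 pseudogene members (1.82%) against 0.698%. The median log2 fold change of pseudogene members was 0.04. Of the 341 members with a G-box or an ABRE, 79 were lower at L26 than at L6 (23.2%), with a median log2 fold change of -0.24, and of the 695 without, 97 were lower (14.0%), with a median of -0.16. Over all ACRs, 12.3% of those with such a motif and 6.82% of those without were lower. The difference between these 2 groups was not tested.

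LEA proteins, which shield membranes and proteins in dry cells, were at 16 members. At L26 against L6, 7 were lower and 0 higher, with a median log2 fold change of -0.43, where 7.91% of all ACRs were lower. At L57 against L6, 10 were lower and 0 higher, with a median of -0.62, where 15.8% of all ACRs were lower. Other scalings gave 7 to 11 and 10 to 12 lower, with 0 higher. The first count was 5 without L26 replicate 1 and 3 without L26 replicate 2, and the second was 6 without L57 replicate 2. LEA (chr2:9206663-9207782, with the ABRE and RY repeat shown above) had 242 and 222 CPM in DS, 79.8 and 77.7 in L6, 58.0 and 50.8 in L26, and 54.0 and 56.3 in L57. It fell by 0.54 ± 0.14 on the log2 scale (SE, edgeR adjusted p = 0.00345) at L26 against L6, and the libraries did not overlap, but without L26 replicate 2 the change was -0.41 with no call (adjusted p = 0.147). M10 (chr2:17208938-17210246) had 349 and 307 CPM in DS, 122 and 118 in L6, 86.4 and 91.6 in L26, and 95.7 and 91.7 in L57. It fell by 0.43 ± 0.12 at L26 against L6 (SE, edgeR adjusted p = 0.00469), and without L26 replicate 1 the change was -0.35 with no call (adjusted p = 0.0869). GEA6, also known as EM6, had a mean of 132 CPM in DS, 73.4 at L6, 26.7 at L26 and 36.8 in L57, and its ACR was lower at both L26 and L57 than at L6. The dehydrins RAB18 and LTI30 had no call between the later stages with the deposited scaling, but both were called lower at L57 than at L6 by TMM factors, DESeq2 size factors, total counts and the DESeq2 test. RAB18 (chr5:26518487-26519897) had 310 and 290 CPM in DS, 78.2 and 82.6 in L6, 82.0 and 75.6 in L26, and 93.4 and 77.2 in L57. Its log2 change at L57 against L6 was 0.07, with no call, and -0.61 by TMM factors (edgeR adjusted p = 0.000733). LTI30 shares its ACR with PLP3a and had 231 and 237 CPM in DS and between 119 and 150 CPM later, and its change in that comparison was 0.25, or -0.48 by TMM factors (edgeR adjusted p = 0.00166).

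Storage protein and oil body genes were at 15 members, of which 5 were lower and 0 higher at L26 against L6. Of all ACRs, 7.91% were lower and 8.71% higher in that comparison. The count of 5 was 3 without L6 replicate 1 or L26 replicate 1 and 2 without L26 replicate 2. At L57 against L6, 5 were lower and 4 higher with a median log2 fold change of -0.12, where 15.8% of all ACRs were lower and 16.0% higher. By TMM factors and by DESeq2 size factors, 6 members were lower and 0 higher. Without a library, the lower calls there were 2 (L6 replicate 1), 3 (L57 replicate 1) or 1 (L57 replicate 2), and the higher calls were 2 without any 1 of the DS or L6 libraries and 0 without L57 replicate 1. The storage ACRs thus gave no settled direction in this comparison. CRA1 (chr5:17757556-17759010) had 233 and 204 CPM in DS, 90.3 and 96.5 in L6, 52.8 and 77.1 in L26, and 71.1 and 57.9 in L57. It fell by 0.51 ± 0.14 at L26 against L6 (SE, edgeR adjusted p = 0.00391), but without L26 replicate 1 the change was -0.25 with no call (adjusted p = 0.345). CRU3, another cruciferin, whose ACR also lies at the start of PHB1, had 182 and 177 CPM in DS, 107 and 127 in L6, 85.8 and 76.3 in L26, and 65.7 and 74.1 in L57. The ACRs at CRA1 and CRU3 were lower at L26 than at L6, for CRU3 with no call without L6 replicate 2 or L26 replicate 2, and neither had a call at L57 against L26. A member at the third cruciferin, CRU2, was also lower at L26 than at L6, with means of 16.7 CPM in DS, 8.05 in L6, 3.07 in L26, and 3.28 in L57. The CRU2 level at L26 was below the members' 10th percentile there, 7.63 CPM, so its call rests on few reads. SESA5 (chr5:22238366-22240004), with its RY repeats, had 199 and 184 CPM in DS, 43.9 and 53.4 in L6, 56.4 and 48.8 in L26, and 83.0 and 61.8 in L57. Its L57 libraries lay above those at L6, with a log2 change of 0.55 ± 0.17 (SE, edgeR adjusted p = 0.00645), which was 0.07 with no call by TMM factors and lost its call without L6 replicate 1 or L57 replicate 1 (0.42 and 0.38). PAP85 (chr3:8013283-8014596, a vicilin-like protein) had 161 and 165 CPM in DS, 29.0 and 22.9 in L6, 26.3 and 24.5 in L26, and 39.6 and 39.2 in L57. OLEO1 (chr4:12899409-12900834), which holds the most motifs of the stretches shown, had 261 and 261 CPM in DS, 122 and 140 in L6, 132 and 106 in L26, and 100 and 137 in L57. Its later libraries overlapped, and it had no call with the deposited scaling, but at L57 against L6 it was lower by TMM factors (-0.86, edgeR adjusted p = 5.35e-08), DESeq2 size factors, total counts and the DESeq2 test. That ACR also lies at the start of PMSR4.

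Heat shock genes, which encode chaperones and their regulators, were at 15 members of 11 genes. At L57 against L6, 6 were higher and 1 lower with a median log2 fold change of 0.26, where 16.0% of all ACRs were higher and 15.8% lower, but 3 were higher and 3 lower by TMM factors and by DESeq2 size factors, and 2 and 2 by the DESeq2 test. The higher calls were 3 without L6 replicate 1, and the lower calls were 2 without DS replicate 1. Hsp70b, whose ACR on chr1:5502896-5504974 also lies at the start of AT1G16040, had 189 and 197 CPM in DS, 65.1 and 47.8 in L6, 58.9 and 80.5 in L26, and 98.6 and 137 in L57. Its L57 libraries were above those of both earlier light stages. It was higher by 1.08 ± 0.15 on the log2 scale at L57 against L6 (SE, edgeR adjusted p = 3.97e-10), by 0.52 by TMM factors, and by 0.51 with no call by the DESeq2 test (adjusted p = 0.213). The ACR inside HSP17.4 (chr3:16984124-16985173, a small heat shock protein) had 250 and 240 CPM in DS, 43.1 and 50.0 in L6, 45.3 and 54.7 in L26, and 72.8 and 55.2 in L57. Its change at L57 against L6 was 0.44 ± 0.17 (SE, edgeR adjusted p = 0.0379), but -0.10 by TMM factors, and the call was lost without either DS library, L6 replicate 1 or L57 replicate 1 (0.29 to 0.34). HSP17.6A (chr5:3884088-3885249) had 239 and 232 CPM in DS, 58.0 and 57.5 in L6, 51.1 and 56.4 in L26, and 66.2 and 71.3 in L57, with no call. HSFA9, a heat shock factor of the maturing seed, had a mean of 77.6 CPM in DS, 50.6 at L6, 26.6 at L26 and 16.8 in L57, and a log2 change of -1.59 at L57 against L6. With the deposited scaling it was the only member of the 15 that was lower in this comparison.

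ABA genes were at 10 members, of which 5 were lower and 1 higher at L57 against L6, where 15.8% of all ACRs were lower and 16.0% higher. By TMM factors, 7 of these members were lower and 0 higher. The member with the higher DS level in CYP707A2 (chr2:12496793-12497773), which encodes an enzyme that breaks down ABA, had 136 and 115 CPM in DS, 78.2 and 84.1 in L6, 64.0 and 56.6 in L26, and 43.0 and 39.4 in L57. It was lower at each step, though each step lost its call without any 1 of the libraries of the stages compared. At L57 against L6 it fell by 0.99 ± 0.18 (SE, edgeR adjusted p = 2.14e-06). LTI65 (chr5:21236592-21237324), with 3 ABREs in the stretch shown, had 140 and 124 CPM in DS, 90.7 and 75.2 in L6, 82.9 and 80.2 in L26, and 44.1 and 52.5 in L57. It had no call at L26 against L6, and at L57 against L26 it fell by 0.74 ± 0.18 (SE, edgeR adjusted p = 0.00154), and without L57 replicate 1 the change was -0.61 with no call (adjusted p = 0.0674). RD26 (chr4:13709043-13710141, a NAC transcription factor) had 132 and 122 CPM in DS, 56.7 and 58.5 in L6, 31.1 and 39.3 in L26, and 48.0 and 55.4 in L57. Its ACR was lower at L26 than at L6, a call lost without L26 replicate 1, and had no call at L57 against either. The ACR inside HAI1 (chr5:23894475-23896275), a PP2C phosphatase that dampens ABA signaling, had 179 and 175 CPM in DS, 49.6 and 56.3 in L6, 59.4 and 54.7 in L26, and 98.9 and 93.3 in L57. It was higher at L57 than at L6 by 0.86 ± 0.15 (SE, edgeR adjusted p = 1.81e-06), but by 0.36 with no call by TMM factors. With the deposited scaling the ACR inside HAI1 rose by 0.75 between L26 and L57 while that at LTI65 fell, so these ACRs moved in opposite directions. The other HAI1 member, at the promoter, had means of 43.6 CPM in DS, 19.6 at L6, 17.2 at L26 and 21.0 in L57. It had no call between the later stages, with a log2 change of 0.28 at L57 against L26.

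Regulators of maturation and dormancy were at 5 members, of which 3 were lower and 0 higher at L26 against L6. Of all ACRs, 7.91% were lower and 8.71% higher in that comparison. The count of lower members was 2 by total counts and by the DESeq2 test. The ACR at SOM (chr1:953923-954739), a zinc finger protein that restrains germination in the dark, had 232 and 222 CPM in DS, 129 and 132 in L6, 90.7 and 78.2 in L26, and 36.4 and 37.0 in L57. It fell by 0.64 ± 0.12 at L26 against L6 (SE, edgeR adjusted p = 2.03e-05), fell by 1.20 ± 0.18 at L57 against L26 (SE, edgeR adjusted p = 1.72e-07) and fell by 1.83 ± 0.16 at L57 against L6 (SE, edgeR adjusted p = 2.59e-20). A neighbouring member on chr1:952600-953302, between SOM and TPX2 (a spindle protein), had 96.4 and 86.4 CPM in DS, 55.0 and 52.8 in L6, 21.1 and 24.4 in L26, and 7.72 and 9.56 in L57. These 2 ACRs were lower at every step, with no overlap between successive stages. The last step of the neighbour lost its call without L57 replicate 1 (-1.23, adjusted p = 0.0619). The member upstream of DOG1 (chr5:18591812-18592377) had 37.6 and 44.0 CPM in DS, 22.4 and 23.1 in L6, 8.13 and 6.49 in L26, and 6.31 and 8.35 in L57. It fell by 1.65 ± 0.33 at L26 against L6 (SE, edgeR adjusted p = 5.55e-05) and had no call at L57 against L26. E12A11, also known as MFT and a regulator of ABA response in seeds, had 44.5 and 32.8 CPM in DS, 26.3 and 23.7 in L6, 9.01 and 17.5 in L26, and 18.2 and 16.0 in L57. DPBF2 had 28.6 and 30.0 CPM in DS, 18.3 and 18.6 in L6, 11.1 and 14.5 in L26, and 13.1 and 8.78 in L57, with no call between the later stages. For raffinose sugars, which build up in dry seeds, GolS1 (galactinol synthase) had 149 and 137 CPM in DS and between 80.3 and 98.9 CPM later. GolS1 had no call with the deposited scaling but was lower at L57 than at L6 by TMM factors (-0.37, edgeR adjusted p = 0.0412) and by DESeq2 size factors. STS (stachyose synthase) had 44.7 and 49.7 CPM in DS, 23.2 and 19.4 in L6, 11.4 and 15.6 in L26, and 11.1 and 11.0 in L57. It fell by 0.94 ± 0.33 at L57 against L6 (SE, edgeR adjusted p = 0.0186), but had no call by total counts, with GC-corrected offsets, by the DESeq2 test, or without L6 replicate 1 or either L57 library.

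**Figure D5:**
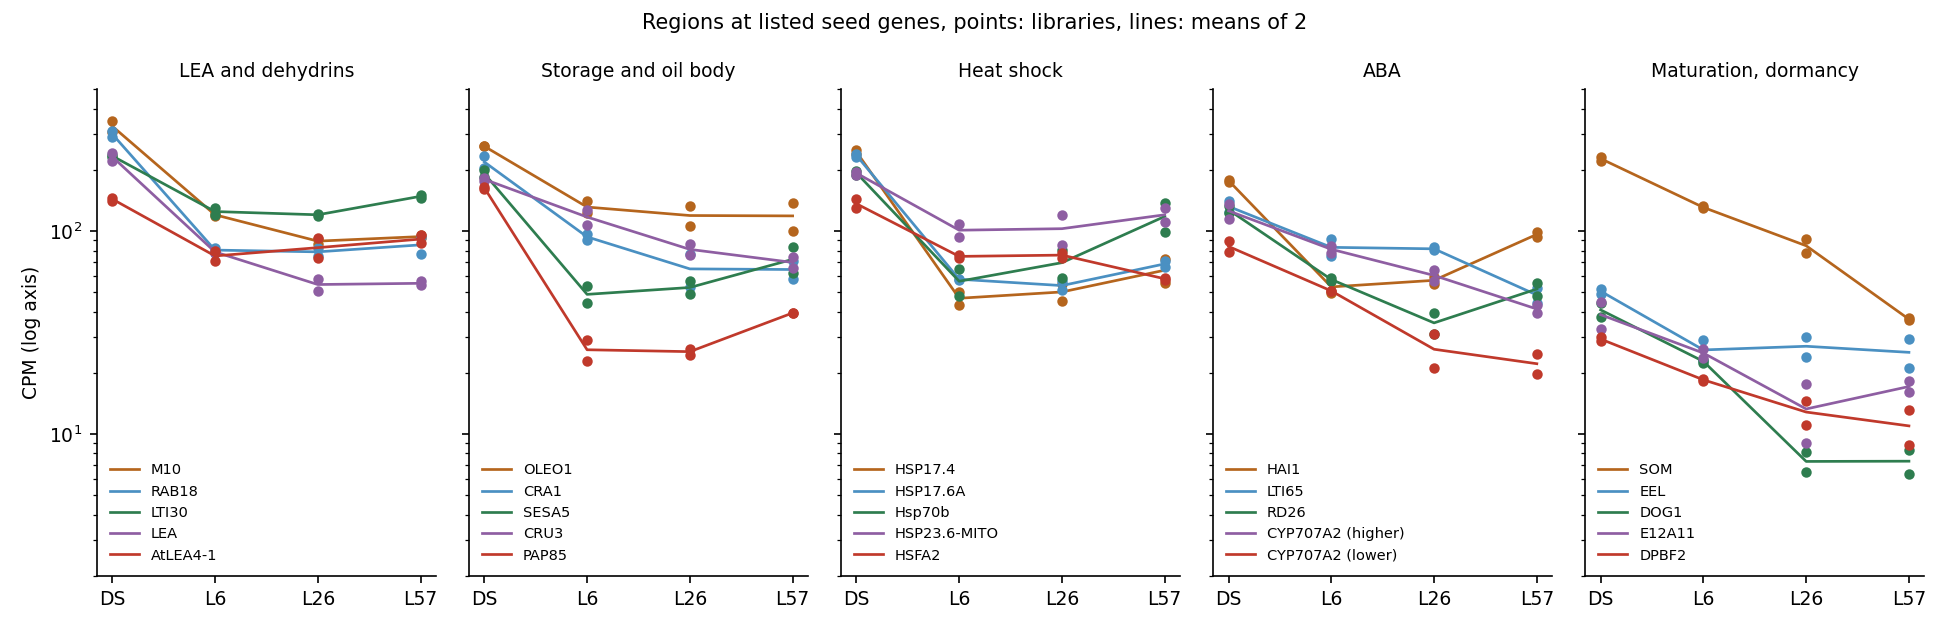
CPM on a log axis by stage, from DS to L57, for up to 5 members each of LEA, storage, heat shock, ABA and maturation genes, with the highest DS level. Points are libraries and lines join the means of 2, and SOM reached 36.4 and 37.0 CPM at L57 while Hsp70b stood at 98.6 and 137 CPM there.

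Some members outside these lists changed by more. At L26 against L6, the largest falls were at AT4G06005 (a non-coding gene), UMAMIT8, STP12 (a sugar transporter) and AT3G24210, with log2 changes of -2.23, -2.05, -1.91 and -1.84. The first 3 rest on 9 counts or fewer in each L26 library. UMAMIT8 and STP12 lost their call without L6 replicate 1, and UMAMIT8 also without L26 replicate 2 and by the DESeq2 test. AT3G24210 (chr3:8757889-8758650) had 194 and 191 CPM in DS, 73.1 and 72.1 in L6, 19.4 and 20.9 in L26, and 29.2 and 16.8 in L57. The 4 members that were higher at L26 than at L6 were at EMB2770 (a splicing factor), CSLC5 (a cell wall glucan synthase), AT1G61900 and AT1G19530, with log2 changes of 0.82, 0.60, 0.58 and 0.51. All 4 lost their call with the 2 stages alone and by the DESeq2 test.

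At L57 against L26, the largest fall was in the promoter of AT4G11910, which encodes a STAY-GREEN-like protein, the family that takes magnesium from chlorophyll. That ACR (chr4:7155794-7156313) had 113 and 113 CPM in DS, 72.1 and 64.9 in L6, 46.0 and 32.6 in L26, and 9.56 and 8.29 in L57. It fell by 2.13 ± 0.31 (SE, edgeR adjusted p = 5.16e-08). AT1G12330, TPX2 and AT1G08027 followed with changes of -1.65, -1.39 and -1.32. The calls at AT1G12330 and AT1G08027 were lost without L57 replicate 2, and that at AT1G08027 also without L26 replicate 2 or L57 replicate 1 and by the DESeq2 test. The ACR downstream of SAUR36 (an auxin-responsive gene, chr2:18642490-18643206) had 93.3 and 87.0 CPM in DS, 18.6 and 17.9 in L6, 12.7 and 13.9 in L26, and 40.8 and 32.4 in L57. It was higher at L57 by 1.44 ± 0.28 (SE, edgeR adjusted p = 6.21e-05), with STZ (a stress zinc finger protein) at 1.11, ABR1 (an ERF factor) at 1.10 and MC3 (a metacaspase) at 1.09. The last 3 had no call by the DESeq2 test, without L26 replicate 2 or without either L57 library. Over the whole span of L57 against L6, YLS5 (chr2:16235067-16236384) was higher with 98.4 and 60.9 CPM at L57 and 41.6 and 27.7 in L6, and in DS it had 181 and 185 CPM. The ACR upstream of WOX2 (chr5:23937359-23938005), a homeobox gene of the young embryo, had 80.1 and 80.7 CPM in DS, 43.3 and 41.8 in L6, 22.0 and 13.8 in L26, and 9.35 and 9.38 in L57. It fell by 2.18 ± 0.29 at L57 against L6 (SE, edgeR adjusted p = 2.14e-10). The members thus included both ACRs that were lower in seedlings than at L26 and ACRs that were higher.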

How the data were processed

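The deposited count table holds reads per ACR and library for 30223 ACRs and 8 libraries, and the deposited CPM table holds the same values after the authors scaled them with abundance-dependent offsets from csaw. Per the methods and the submitters' notes, reads were trimmed (fastp 0.23.4), aligned to TAIR10 (Bowtie2 2.4.4), filtered and freed of duplicates (SAMtools 1.14, Genrich 0.6.1), and MACS3 3.0.0b3 peaks present in both replicates were merged over stages. The authors counted with bedtools 2.30.0. Every column had its sample, and 0 were left out.

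Members were chosen on the CPM table, and members and gene lists were chosen with earlier results of these data known. Stages were compared on the counts in R 4.3.3 (edgeR 4.0.16, quasi-likelihood test). All 8 libraries entered 1 model, with offsets recomputed by limma 3.58.1 (loess span 0.3). No ACR was filtered, and p-values were adjusted by Benjamini-Hochberg over the whole table. Annotation and sequences came from RefSeq TAIR10.1, whose chromosome lengths were compared with the files (1 ACR each on chromosomes 4 and 5 ran past the end). Transposable elements were not analysed as a class of their own, and the pseudogene class was not split by them. The fit was run on simulated counts, for L57 against L26 only. These counts held no trend with abundance and no stage difference outside the ACRs changed on purpose. They therefore cannot show how the fit handles the scaling on which calls here depended. Intervals are exact (Clopper-Pearson, 95%) and cover counting error only.

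Named members were the 8 with the largest ratio, the 6 with the highest DS level, up to 5 per list by DS level, and the 4 largest rises and falls with libraries that did not overlap in each comparison, plus the 3 nearest ACRs on each side of both limits. The text prints a subset of these. GEA6, HSFA9, CRU2 and the second members of HSP70 and HAI1 were named after their values were seen. Alternatives were TMM factors, DESeq2 size factors, total counts, GC-corrected offsets, the DESeq2 1.42.0 Wald test, the earlier quasi-likelihood form, a count filter, a replicate block, the 2 stages alone and each library left out.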

Additional observations from a re-analysis of the deposited data

How the results depend on the processing

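The limits are 2 libraries a stage, falling depth and a scaling that follows abundance. A ratio of at least 2 left 296 members, and a limit under 1.5 gave 2669. Members were 956 by total counts to 1347 with GC-corrected offsets (818 of them the same ACRs), 1045 by TMM factors (890 the same), and 997 to 1223 without a library. Lower calls at L26 against L6 ranged from 101 to 184 without a library, and higher calls from 2 to 5; higher calls were 9 by total counts and 0 with the 2 stages alone and by the DESeq2 test. At L57 against L26, lower calls were 65 by TMM factors and 60 by DESeq2 size factors, and 12 to 39 without a library; higher calls were 56 with GC-corrected offsets, 8 by the DESeq2 test and 16 to 38 without a library. At L57 against L6, lower calls were 119 to 214 without a library; higher calls were 14 by TMM factors, 14 by DESeq2 size factors, 49 with GC-corrected offsets, 18 with the 2 stages alone, 10 by the DESeq2 test and 19 to 31 without a library. A stage left with 1 library was assumed to vary like the others. Same-numbered libraries did not deviate together on the scaled values (correlations of -0.0405 to 0.0231). No pairing by number was thus seen, but scaled values with 2 libraries a stage cannot show that there was none. The replicate block gave 171 lower and 4 higher calls at L26 against L6, 37 and 33 at L57 against L26, and 199 and 30 at L57 against L6. With promoters from 1000 bp upstream, the intergenic share of members exceeded that of all ACRs by 3.62 points and not 7.72. Searching whole ACRs, which are wider in members, the share of members exceeded that of all ACRs by 11.6 points for the G-box, 6.22 and 12.1 for the ABRE in its GC and TC forms, 10.7 for the RY repeat, 8.04 for the DRE, 2.62 for the heat shock element, 3.18 for the W-box, 10.6 for the I-box, 4.09 for the evening element and 9.75 for the TATA box, and differed by -0.622 for the GCC box and -0.66 for the GA repeat. Within 100 bp it differed by 13.2 for the ACGT core, 1.74 for the LTRE, -0.418 for the GCC box, -1.65 for the Telo-box and 1.44 for the TATA box. The change of AT3G10100 at L26 against L6 was 0.07 with the deposited scaling, and -0.50 by TMM factors, -0.53 by DESeq2 size factors, -0.42 by total counts and -0.53 by the DESeq2 test. In the same order, changes at L57 against L6 turned to -0.55, -0.55, -0.38 and -0.55 at AT1G76590, to -0.61, -0.61, -0.44 and -0.60 at RAB18 and to -0.48, -0.48, -0.32 and -0.48 at PLP3a (LTI30). By TMM factors and by DESeq2 size factors they were -0.10 and -0.10 at HSP17.4 (-0.09 by the DESeq2 test), -0.37 and -0.37 at HSP23.6-MITO and -0.37 and -0.37 at GolS1. Of 75 calls on named members, 34 held under all 17 alternatives, 23 were lost under an alternative that kept all libraries and 39 without a library. The cause of these shifts was not tested.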
